A study of Mus musculus with 48 samples.

Results

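The comparison described here is that of SAPAP3 knockout mice with wild-type mice in the RNA bound to astrocyte ribosomes of the striatum. It was taken by its labels as the 4 knockout and 4 wild-type immunoprecipitated (IP) libraries, 8 of the 48 libraries of the series, and 15198 of the 24060 gene rows in the count table had enough reads to be tested. All mice were adult, of strain C57, and had received an adeno-associated virus that expressed HA-tagged Rpl22, a ribosomal protein, in striatal astrocytes for 3 weeks. Precipitating the tag from a tissue lysate recovers the RNA on the ribosomes of the tagged cells, and the lysate of the same mouse gave an input library. The control mice were wild-type littermates with the same virus, and no label of their own names a drug or other treatment. A protocol text shared by the whole series lists perturbations, which were read as those of other experiments. The labels give neither the age and sex of the mice, nor the promoter of the virus, nor the part of the gene that was deleted. Wild-type replicate 3 has a title that could name 2 mice, and it was counted once. The other experiments of the series, on MPTP and on R6/2 mice, are used only for reference levels.

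SAPAP3, the product of Dlgap3, is a scaffold of the postsynaptic density that links PSD-95 to the Shank proteins at excitatory synapses, and it is abundant in the striatum. Mice without it groom compulsively and are used as a model of obsessive-compulsive disorder. Astrocytes enwrap these synapses, take up the glutamate and potassium that neurons release, and supply cholesterol and glutamine.

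IP depth ran from 40.37 to 47.7 M counted reads (mean 42.96 M, SD 2.89, n = 8). The labelled cell type was checked in the wild-type mice: 28 of 28 astrocyte markers were enriched more than 2-fold in IP over input (edgeR, adjusted p under 0.05), among 1711 such genes (11.0% of 15587 tested), while 1916 genes (12.3%) were depleted more than 2-fold. The depleted genes included 16 of 17 microglia markers and 13 of 16 endothelial and mural markers. Medium spiny neuron markers had a median log2 ratio of only -0.61, so neuronal RNA was still present. Markers of some other cells were enriched more than 2-fold as well. These were 10 of 13 striatal interneuron, 8 of 10 ependymal and choroid plexus and 5 of 14 oligodendrocyte markers, with none of these 3 lists' members depleted that far. Wild-type replicate 4 and knockout replicate 1 had Xist reads (31.8 and 150.6 CPM, counts scaled to library size) and nearly no reads of 4 Y-linked genes, whereas the other 6 libraries had Y-linked reads. The mouse numbers in the titles fell into 3 runs, with wild-type replicates 2 and 3 and knockout replicates 1 and 2 in one, wild-type replicate 4 and knockout replicates 3 and 4 in another, and wild-type replicate 1 alone.

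Few genes of the astrocyte ribosome-bound RNA passed the test between knockout mice and wild-type littermates. Of 15198 genes, 4 passed an adjusted p of 0.05 (0.0263%; edgeR quasi-likelihood test, Benjamini-Hochberg). They were Dlgap3 itself, the gene model 1700003M07Rik and the histone deacetylase gene Hdac1, which fell, and the collagen gene Col16a1, which rose. Apart from the targeted gene, all lie within 3 Mb of Dlgap3 on chromosome 4. The next smallest adjusted p was 0.373, for the zinc finger gene Zbtb8a (edgeR). At an unadjusted p under 0.05 there were 399 genes (2.63%), of which 250 were higher in the knockout (1.64%) and 149 lower (0.980%), and in 235 genes (1.55%) the 4 knockout libraries did not overlap the 4 wild-type libraries. Over all genes the median log2 fold change was 0.01, with the 5th and 95th percentiles at -0.23 and 0.28 and a median standard error of 0.11. The 95% interval of the fold change lay within 1.5-fold in either direction for 12048 genes (79.27%), and 25 genes had an estimate beyond 2-fold. Among the 1711 genes enriched in wild-type IP, 43 had an unadjusted p under 0.05 in the knockout comparison, 37 of them higher. That share was 2.51%, against 2.63% of all genes. Of 1461 genes depleted in wild-type IP and tested here, 52 had such a p (3.56%), 45 of them higher. Since these are bulk libraries, fewer tagged cells and less RNA per cell cannot be told apart.

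**Figure D1:**
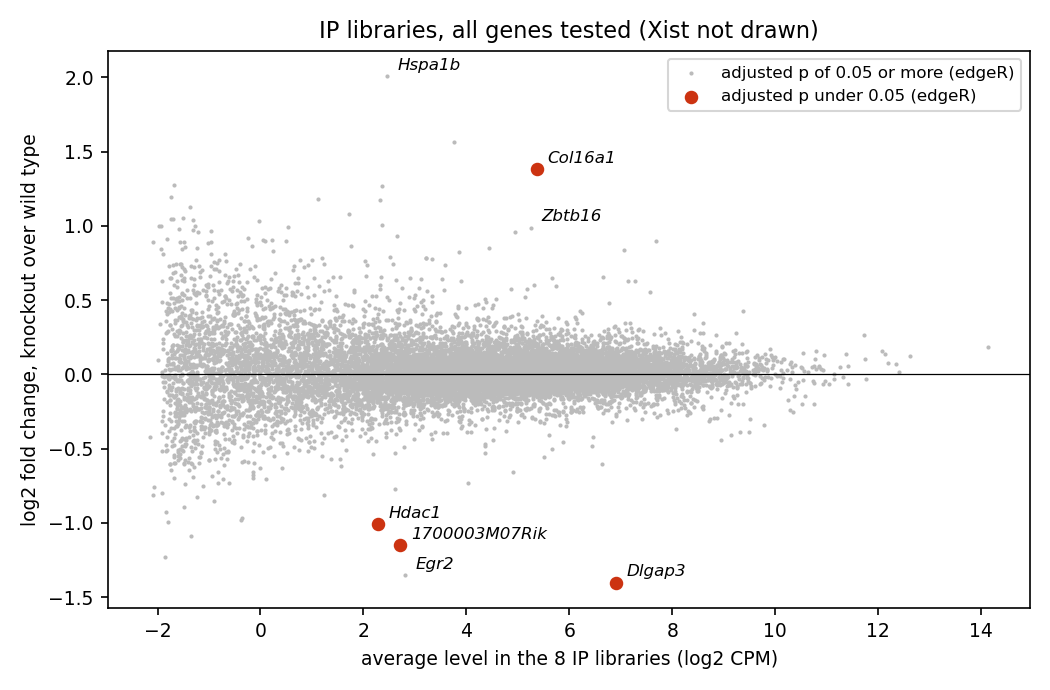
Log2 fold change of knockout over wild type (y axis) against the average level in the 8 IP libraries (x axis, log2 CPM) for each gene tested but Xist. Red points are the 4 genes with an edgeR adjusted p under 0.05, of which Col16a1 is higher and Dlgap3, Hdac1 and 1700003M07Rik are lower. Hspa1b and Egr2 lie as far from 0 as these but did not pass.

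Dlgap3, on the plus strand of chromosome 4 (127169204 to 127237022 in GRCm38, that is mm10), was read in every library. The wild-type IP libraries had 209, 152, 156 and 179 CPM, and the knockout libraries had 87.1, 70.0, 50.5 and 56.1 CPM. The groups did not overlap, and the knockout kept 0.378 of the wild-type level (log2 fold change -1.40 ± 0.169 SE, edgeR adjusted p = 0.0283). In the input libraries of the same mice the log2 fold change was -1.19 ± 0.101 (edgeR adjusted p = 0.00698). A count per gene does not show which exons the remaining reads came from. Dlgap3 RNA was lower in IP than in input already in wild-type mice, with a log2 ratio of -1.09. Its length-corrected IP level in the authors' table was 45.9 FPKM in wild type and 17.2 FPKM in the knockout (means of 4). Within the run of mouse numbers with 2 libraries of each genotype the difference of mean log2 levels was -0.98, and in the run with 1 wild-type and 2 knockout libraries it was -1.74. On a scale set over all libraries, the highest knockout IP library (88.28 CPM) was just above the lowest R6/2 IP library (87.59 CPM).

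Col16a1, which encodes the alpha chain of collagen XVI, a fibril-associated collagen, starts 2.88 Mb from the start of Dlgap3 (plus strand, 130047840 to 130099283). Its IP level was 19.2, 27.5, 19.3 and 25.4 CPM in wild type and 60.9, 68.6, 52.4 and 56.2 CPM in the knockout. Each knockout library was above each wild-type library, a rise of 2.61-fold (log2 1.38 ± 0.133 SE, edgeR adjusted p = 0.00739). The same direction was seen in input, at 0.76 ± 0.135 without passing (edgeR adjusted p = 0.617), and the difference of the 2 effects was 0.63 (edgeR unadjusted p = 0.00118, adjusted p = 0.980). The transcript was 1.83 log2 units enriched in wild-type IP over input. In the 5 other IP groups of the series, wild type included, single libraries ran from 17.65 to 34.68 CPM on a scale set over all libraries, against 53.16 to 69.45 CPM in the knockout. In input on such a scale, the knockout libraries (10.46 to 14.9 CPM) overlapped a group of R6/2 libraries (11.04 to 14.18 CPM). Both runs of mouse numbers showed the IP difference between genotypes, at 1.47 and 1.08 in mean log2 level.

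The proximal promoters of Col16a1 and Dlgap3 are shown because Dlgap3 is the targeted gene and Col16a1 the called neighbour that rose. Each is 300 bases from RefSeq (GRCm38.p6), from 250 bases before to 50 after an annotated start, with every CpG in capitals.
Col16a1, chr4:130047590-130047889, plus strand: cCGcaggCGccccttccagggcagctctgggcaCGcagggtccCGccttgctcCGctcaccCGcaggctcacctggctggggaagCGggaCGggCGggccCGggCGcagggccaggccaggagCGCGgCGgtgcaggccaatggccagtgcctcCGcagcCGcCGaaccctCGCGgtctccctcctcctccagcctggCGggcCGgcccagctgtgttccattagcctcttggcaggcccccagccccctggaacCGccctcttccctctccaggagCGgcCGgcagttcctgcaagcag
Dlgap3, chr4:127172630-127172929, plus strand: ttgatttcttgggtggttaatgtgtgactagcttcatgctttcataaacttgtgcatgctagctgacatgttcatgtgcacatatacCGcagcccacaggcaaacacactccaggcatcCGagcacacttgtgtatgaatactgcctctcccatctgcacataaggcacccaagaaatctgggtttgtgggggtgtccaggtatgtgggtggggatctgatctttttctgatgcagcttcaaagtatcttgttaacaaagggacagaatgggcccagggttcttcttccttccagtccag
The Col16a1 window had a GC content of 74.3% with 24 CpG, and the Dlgap3 window 47.7% with 2 CpG. Over 32851 such windows the medians were 52.7% and 7 CpG. The start used for the Dlgap3 window lies downstream of the first start that GENCODE M21 gives for the gene. The base composition was not tested against the expression values.

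Hdac1 encodes a class I histone deacetylase and lies on the minus strand from 129516104 to 129542713, with its start 2.37 Mb from that of Dlgap3. It had 6.72, 7.29, 5.94 and 5.82 CPM in wild type and 2.83, 3.54, 3.17 and 3.27 CPM in the knockout. The knockout level was 0.497 of wild type, without overlap (log2 -1.01 ± 0.12 SE, edgeR adjusted p = 0.0283), and input gave -0.92 ± 0.146. On a scale set over all libraries, IP libraries of the other experiments ran from 3.587 to 10.02 CPM. The lowest of them, from an R6/2 mouse, was below the highest knockout library (3.589 CPM). In the GENCODE M21 transcripts, 35.49% of the 50-base words of Hdac1 also occur in other genes, among them the pseudogenes Gm10093 and Gm4864, so its count is uncertain. Of the 23 other tested genes for class I histone deacetylases and their complexes, 11 were higher and 12 lower, none had an unadjusted p under 0.05, and the median log2 fold change was -0.00. Of the 23 other tested collagen chains, 21 were higher and 2 lower, with a median of 0.14. Col1a2 alone had an unadjusted p under 0.05 (0.56 ± 0.158). The median was 0.07 without wild-type replicate 1, and summed levels overlapped between the groups. In input, 5 of 23 chains were higher and 18 lower, with a median of -0.10.

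1700003M07Rik is a long noncoding RNA gene between Hdac1 and Col16a1 (plus strand, 129960374 to 129963657). Its IP levels were 7.92, 8.65, 9.76 and 9.62 CPM in wild type and 4.15, 4.44, 4.03 and 3.59 CPM in the knockout. The groups stood well apart (log2 -1.15 ± 0.11 SE, edgeR adjusted p = 0.00739). In the input libraries the value was -0.68 ± 0.125 (edgeR adjusted p = 0.622). In IP libraries of the other experiments it ran from 6.284 to 13.59 CPM, above every knockout library. In input the groups did overlap, with vehicle libraries of the MPTP experiment from 4.448 CPM and knockout libraries up to 4.635 CPM.

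**Figure D2:**
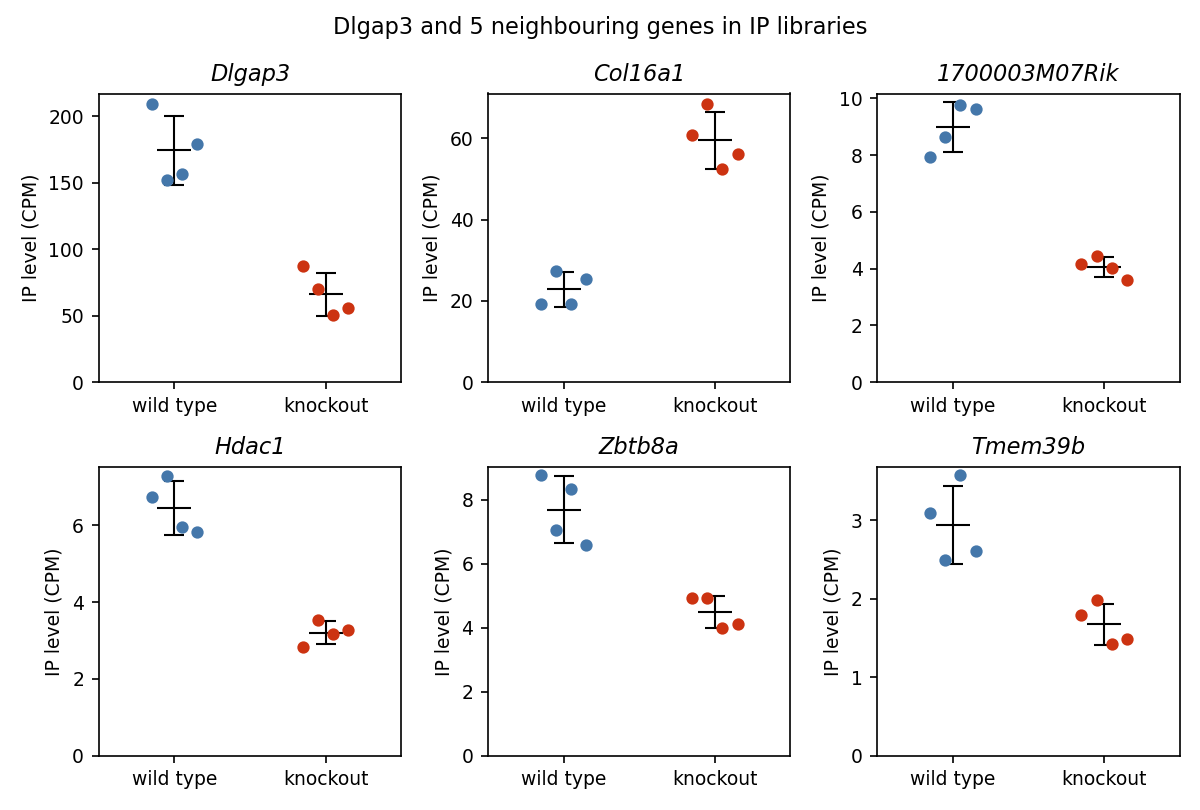
IP level (y axis, CPM, starting at 0) of Dlgap3 and 5 neighbouring genes in the 4 wild-type (blue) and 4 knockout (red) libraries, with the mean and SD in black. In each panel the groups do not overlap. Col16a1 is higher in the knockout and the other 5 are lower, but Zbtb8a and Tmem39b did not pass the adjusted threshold.

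The calls depended on which libraries were used. Without wild-type replicate 4 no gene passed (0 calls), where Col16a1 and 1700003M07Rik each had an adjusted p of 0.0503 (edgeR). Leaving out any other single library left 2 or 3 calls, with Col16a1 and 1700003M07Rik among them each time. Hdac1 passed in no fit without a single library (edgeR adjusted p of 0.0780 to 0.169). Dlgap3 passed only in the one without knockout replicate 1 (edgeR adjusted p = 0.0204). Leaving out wild-type replicate 4 and knockout replicate 1, the mice without Y-linked reads, also gave 0 calls, with Dlgap3 at -1.55, Col16a1 at 1.43, 1700003M07Rik at -1.13 and Hdac1 at -0.999. A fit with the run of mouse numbers as a term gave 0 calls too, with Col16a1 at 1.32 (edgeR adjusted p = 0.0800) and Dlgap3 at -1.29 (adjusted p = 0.165).

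Genes close to Dlgap3 had small p-values at a larger share than genes elsewhere. Within 2 Mb, 5 of 40 tested genes had an unadjusted p under 0.05 (12.5%), from 2 to 5 Mb 14 of 73 (19.2%), and from 5 to 10 Mb 3 of 139 (2.16%). Beyond that, the share was 2 of 159 genes at 10 to 20 Mb (1.26%), 3 of 207 at 20 to 50 Mb (1.45%), 11 of 266 farther along chromosome 4 (4.14%) and 349 of 13584 on other chromosomes (2.57%). In the first 5 Mb on either side, 7 of the 19 genes were higher and 12 lower, and 14 of 113 genes had groups without overlap (12.4%, against 1.55% of all genes). These neighbours were known from earlier results of the same data, and the shares are a description.

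Among the other neighbours with an unadjusted p under 0.01, Zbtb8a, a zinc finger gene (2.21 Mb), had 8.78, 7.06, 8.33 and 6.57 CPM in wild type and 4.94, 4.93, 3.98 and 4.12 CPM in the knockout. That was -0.77 ± 0.129 in IP and -0.81 ± 0.0984 in input, close to the same in both fractions. On a scale set over all libraries, Zbtb8a was about as low in a group of R6/2 IP libraries (4.007 to 5.099 CPM) as in the knockout (4.038 to 5.001 CPM). Of its 50-base words, 11.4% occur in other genes, among them Zbtb8os on the opposite strand, so its count is uncertain too. Tmem39b, a gene for a transmembrane protein (2.53 Mb), was at -0.81 ± 0.173 in IP with every knockout library lower than every wild-type library. Khdrbs1, which encodes the RNA-binding protein Sam68 (2.57 Mb), was at -0.28 ± 0.0657, from 125 to 138 CPM in wild type and from 101 to 116 CPM in the knockout. Hcrtr1, the orexin receptor 1 gene (2.97 Mb), was higher at 0.90 ± 0.234 but had only 0.616 to 0.906 CPM in wild type and 0.933 to 1.73 CPM in the knockout. Sfpq, a splicing factor gene at -0.15 Mb, was at 0.26 ± 0.0734 in IP and 0.01 ± 0.0598 in input. Clspn, a DNA replication checkpoint gene at -0.61 Mb, was at -0.44 ± 0.135 with overlapping groups, and Zbtb40, a zinc finger gene 9.88 Mb away, at 0.31 ± 0.0908. None of these passed the adjusted threshold (edgeR adjusted p of 0.373 for Zbtb8a and 0.999 for the rest), so they are values and not calls.

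**Figure D3:**
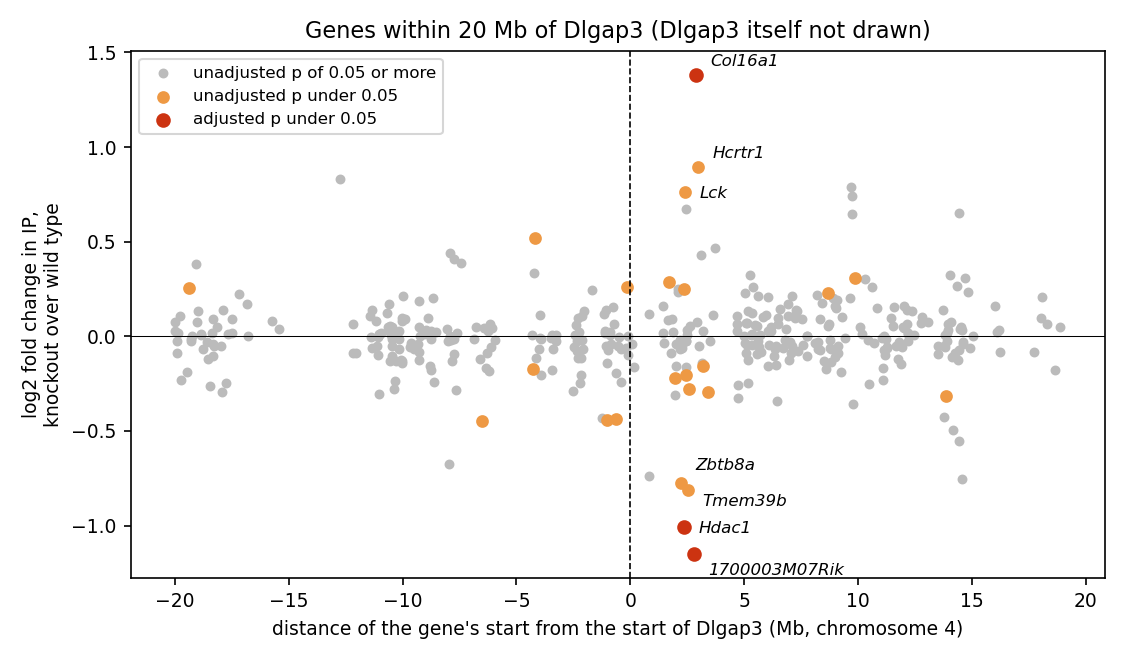
Log2 fold change in IP (y axis) of each tested gene within 20 Mb of Dlgap3 against the distance between gene starts (x axis, Mb). Red points are the 3 neighbours with an edgeR adjusted p under 0.05 and orange points those with an unadjusted p under 0.05. Apart from Dlgap3 itself, the largest differences in both directions lie between 2 and 3 Mb from Dlgap3.

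Away from chromosome 4, no gene passed. The rule for named genes asked for an unadjusted p under 0.01, an average of at least 1 log2 CPM and no overlap between groups. Over all chromosomes, Dlgap3 and some of its neighbours included, 38 genes were eligible, 19 higher and 19 lower in the knockout. Outside chromosome 4 the highest estimates among them were those of Hspa1b and Zbtb16. Hspa1b, an inducible Hsp70 chaperone gene, was at 2.01 ± 0.454. Zbtb16, a transcriptional repressor gene induced by glucocorticoids, was at 0.99 ± 0.244. Others on the higher side were Fam19a1 (0.56), which encodes a secreted brain protein, Prr5 (0.44), for a component of mTOR complex 2, Rnf152 (0.38), for a lysosomal ubiquitin ligase, Lrp5 (0.35), for a Wnt coreceptor, and Hdac4 (0.31), for a class II histone deacetylase. Rnf152 was the tightest of them, with 12.15, 12.57, 12.27 and 12.14 CPM in wild type and 17.73, 15.88, 15.03 and 15.45 CPM in the knockout. On the lower side stood the activity-induced transcription factor genes Egr2 (-1.35 ± 0.269) and Egr4 (-0.73 ± 0.163). Sh3rf2 (-0.56), for a ubiquitin ligase, Wnt2 (-0.54), a Wnt ligand gene, Casq2 (-0.45), for a calcium-binding protein of the endoplasmic reticulum, and Pthlh (-0.36), for a parathyroid hormone-like peptide of interneurons, followed. All had an edgeR adjusted p of 0.999.

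In whole striatum, the input libraries, 1 of 15591 genes was called (0.00641%), Dlgap3, and 869 had an unadjusted p under 0.05 (5.57%). No gene had a different knockout effect in IP and in input at an adjusted p of 0.05 (0%, 0 of 16059 genes; edgeR, each animal a block), while 561 had an unadjusted p under 0.05 (3.49%), and DESeq2 without that block called 1, Dcdc2b. This gene, a doublecortin-domain gene on chromosome 4, gave the smallest p, with an IP value of 0.67 ± 0.322 against -1.82 ± 0.266 for input (adjusted p of the difference = 0.754, edgeR). It lies inside Tmem234 on the opposite strand, the counting is not stated to use strand, and its IP level was at most 1.07 CPM, so the value is uncertain. Mc4r, a melanocortin receptor gene, was at -0.33 in IP and 0.65 in input, with at most 1.58 CPM in any IP library.

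Heat shock and chaperone genes help proteins fold, and stress induces many of them. Of 14 tested, 13 were higher and 1 lower in the knockout, 5 had an unadjusted p under 0.05, 5 of them higher (35.7%, against 1.64% of all genes), none passed after adjustment, and the median log2 fold change was 0.14 against 0.01 over all genes. Hspa1b had 1.85, 1.92, 2.00 and 2.90 CPM in wild type and 3.83, 3.74, 15.5 and 11.9 CPM in the knockout. The higher levels of Hspa1b were thus those of knockout replicates 3 and 4, and Hspa1a showed the same order with 4.91, 3.62, 11.2 and 9.37 CPM in the knockout against 2.71 to 3.78 CPM in wild type. Of the 50-base words of Hspa1b, 62.31% also occur in other genes, Hspa1a among them, so both counts are uncertain. Hsph1, the Hsp110 co-chaperone gene, differed less but more evenly, with 232, 218, 232 and 220 CPM in wild type and 263, 259, 256 and 269 CPM in the knockout (0.21 ± 0.0578, edgeR adjusted p = 0.999). Bag3, a co-chaperone of Hsp70, was at 0.31 ± 0.101. The summed level of the list ran from 3473 to 3504 CPM in wild type and from 3522 to 4031 CPM in the knockout, without overlap. Leaving out single libraries gave 4 to 7 members with an unadjusted p under 0.05, and the median was 0.09 without knockout replicate 4.

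A heat shock element, the site bound by heat shock factor 1, was searched in the promoter windows, on both strands, as the units GAA, TTC and GAA in this order with any 2 bases between each. It was found in 3 of the 10 heat shock genes with a RefSeq window, Hsph1, Hspd1 and Hspe1. Over all genes with a window it was found in 179 of 27025, and in 0.603% of the 32851 windows. The Hspd1 and Hspe1 windows overlap on opposite strands and hold the same matches. Of these, Hspd1 and Hspe1 had log2 fold changes of only 0.01 in IP. The Hsph1 window (RefSeq, GRCm38.p6) is shown because Hsph1 had the most even difference of the list, with the match in capitals, in the orientation of the opposite strand and starting 15 bases after the annotated start.
Hsph1, chr5:149636266-149636565, minus strand: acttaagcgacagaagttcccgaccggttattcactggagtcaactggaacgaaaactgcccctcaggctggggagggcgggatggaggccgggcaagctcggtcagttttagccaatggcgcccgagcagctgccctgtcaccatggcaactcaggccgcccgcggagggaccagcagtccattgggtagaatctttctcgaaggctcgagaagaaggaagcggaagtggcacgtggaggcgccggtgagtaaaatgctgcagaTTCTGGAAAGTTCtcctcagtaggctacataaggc
The windows of Hspa1a and Hspa1b held no match to these letters, which says nothing of the factor.

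Glucocorticoid response genes, which the stress hormone corticosterone induces, had a median log2 fold change of 0.35, with 12 of 14 higher, 2 lower and 8 at an unadjusted p under 0.05, 8 of them higher (57.1%, against 1.64% of all genes). None passed over all genes. Zbtb16 had 15.7, 32.6, 28.7 and 26 CPM in wild type and 33.7, 44.2, 61.3 and 65.0 CPM in the knockout. Tsc22d3, which encodes the glucocorticoid-induced leucine zipper protein GILZ, had 91.9, 135, 129 and 129 CPM in wild type and 125, 142, 234 and 248 CPM in the knockout. In both genes knockout replicates 3 and 4 were the highest libraries, as they were for Fkbp5, a co-chaperone of the glucocorticoid receptor (0.38 ± 0.129), and Hif3a, a hypoxia-inducible factor subunit gene (0.93 ± 0.32). The lipid droplet gene Plin4, named after its values were seen, showed the pattern most strongly, at 31.0 and 37.4 CPM in these 2 libraries and 4.14 to 11.1 CPM in the other 6. Sgk1, a glucocorticoid-induced kinase gene also named after its values were seen, was high in these 2 libraries (341 and 387 CPM) and in wild-type replicate 4 (256 CPM), which belongs to the same run of mouse numbers.

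For glucocorticoid response genes, the mean log2 level of knockout minus wild type was 0.09 in the run with 2 libraries of each genotype and 0.52 in the run of wild-type replicate 4 and knockout replicates 3 and 4. For heat shock genes the same differences were 0.13 and 0.38. Without knockout replicate 4, 2 glucocorticoid response genes had an unadjusted p under 0.05, and without both mice lacking Y-linked reads 12 did. Without the libraries with Xist above 1 CPM, which leaves wild-type replicates 1 to 3 and knockout replicates 3 and 4, Hspa1a, Hspa1b, Plin4 and Sgk1 were among 7 genes that passed an adjusted p of 0.05 (edgeR). The knockout libraries left share a run of mouse numbers that holds none of the wild-type libraries left. In this fit genotype and run therefore cannot be told apart. The glucocorticoid and heat shock differences were both larger in the run that holds knockout replicates 3 and 4. Of 16 circadian clock genes, 9 were higher and 7 lower, with a median of 0.03 and 1 at an unadjusted p under 0.05, Ciart (-0.39 ± 0.145).

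Immediate early genes, which neuronal activity and other stimuli switch on within minutes, were mostly lower: 13 of 16 were lower and 3 higher, 4 had an unadjusted p under 0.05, all lower (25%, against 0.980% of all genes), and the median was -0.23. Without knockout replicate 3 it was -0.14. Egr2 had 12.02, 9.42, 12.4 and 5.99 CPM in wild type and 3.83, 3.89, 2.41 and 5.44 CPM in the knockout. The groups did not overlap, but wild-type replicate 4 and knockout replicate 4 were close. For Egr4, a related zinc finger gene, the wild-type libraries had 25.5, 16.7, 19.6 and 20.2 CPM and the knockout libraries 15.4, 11.5, 9.41 and 13.0 CPM. Junb, an AP-1 subunit gene, was at -0.51 ± 0.144 and Nr4a1, a nuclear receptor gene, at -0.66 ± 0.201, both with overlap. Mean log2 levels of the list were lower in the knockout in both runs of mouse numbers, at -0.28 and -0.24, and in input the median was -0.24. The second value rests on knockout replicate 3 (-0.64), since knockout replicate 4 (-0.17) was level with wild-type replicate 4 (-0.16). Within the runs, Junb was at -0.54 and -0.06 and Nr4a1 at -0.79 and -0.05. Egr2 was at -1.38 and -0.64 and Egr4 at -0.43 and -0.84. Medium spiny neurons express these genes too, and their markers, given next, moved the same way.

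**Figure D4:**
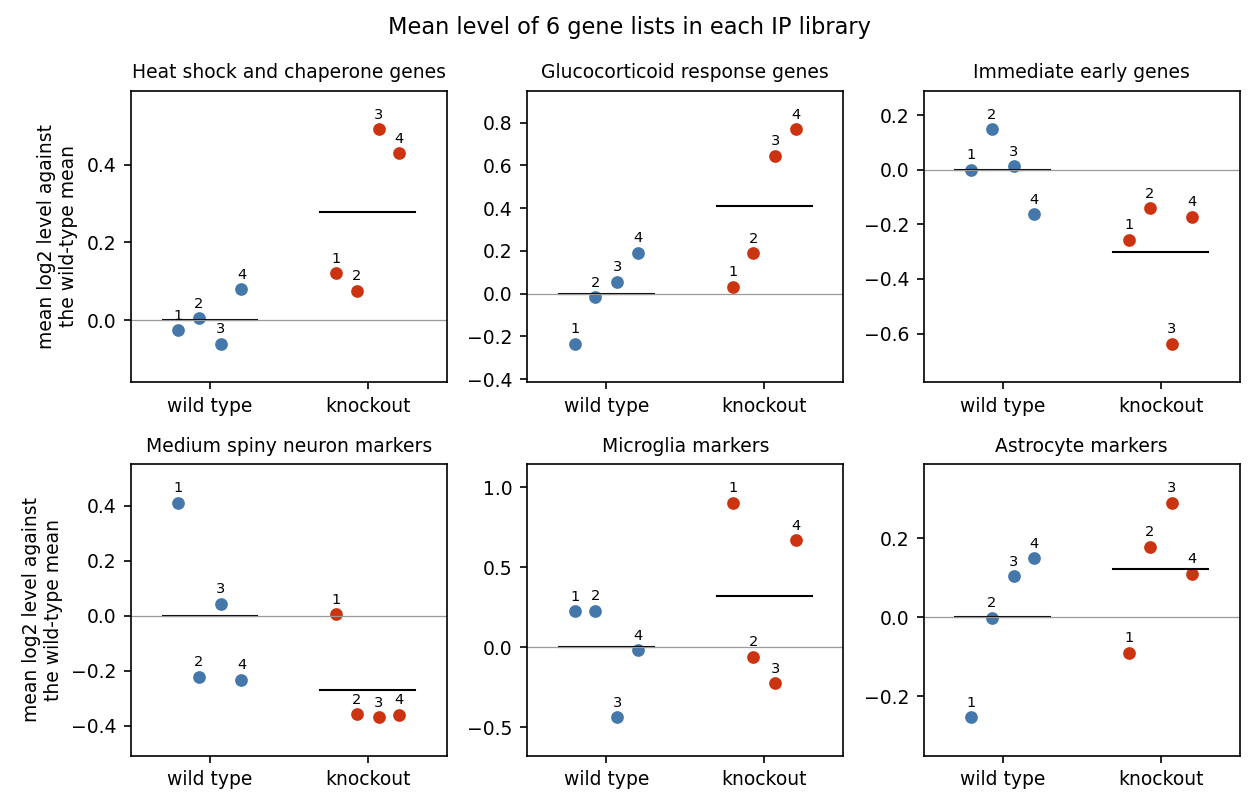
Mean log2 level of the members of 6 gene lists in each IP library, relative to the wild-type mean (y axis), with replicate numbers beside the points and group means as lines. Knockout replicates 3 and 4 lie highest for heat shock and glucocorticoid response genes, wild-type replicate 1 highest for medium spiny neuron markers, and knockout replicates 1 and 4 highest for microglia markers.

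Markers of other cells show what else the precipitates held. All 25 tested medium spiny neuron markers were lower in the knockout, 4 with an unadjusted p under 0.05 (16%, against 0.980% of all genes on the lower side), with a median of -0.27 in IP and -0.29 in input, and their summed level ran from 6459 to 10154 CPM in wild type and from 5653 to 7717 CPM in the knockout. Wild-type replicate 1 had the highest summed level, and without it the median was -0.14 with 1 marker at an unadjusted p under 0.05. Leaving out single libraries gave 1 to 19 such markers, the most without knockout replicate 1. Adora2a, the adenosine receptor gene of the indirect pathway, was at -0.48 ± 0.2, and Rgs9, a striatal G protein regulator gene, at -0.37 ± 0.161. Both had their highest level in wild-type replicate 1. Of 10 cortical excitatory neuron markers 9 were higher (median 0.64) and none was at an unadjusted p under 0.05. Slc17a7, the vesicular glutamate transporter of cortical neurons, had 10.9 CPM in wild-type replicate 1, 85.2 to 161 CPM in the other wild-type libraries and 75.0 to 242 CPM in the knockout. The cortical median was 0.26 without wild-type replicate 1, and the list's mean log2 difference was 0.49 and -0.09 within the runs. The part of these neuronal RNAs in the lower immediate early genes was not tested.

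In IP, 15 of 17 microglia markers were higher (median 0.53), 2 at an unadjusted p under 0.05 (11.8%, against 1.64% of all genes on the higher side), whereas in input 17 of 17 were lower (median -0.24). The difference between the fractions had an unadjusted p under 0.05 for 8 of the 17 and an adjusted p under 0.05 for none. The IP median was 0.24 without knockout replicate 1, and leaving out single libraries gave 0 to 6 markers at an unadjusted p under 0.05, 0 without knockout replicate 1 or wild-type replicate 3 and 6 without knockout replicate 3. Levels in IP were low: Tyrobp, an immune signalling adaptor gene, had 0.542 to 1.20 CPM in wild type and 3.14, 1.09, 0.933 and 2.32 CPM in the knockout, and Csf1r, the receptor for a microglial growth factor, had 20.8 and 17.0 CPM in knockout replicates 1 and 4 against at most 9.20 CPM in the other 6 libraries. The summed level overlapped between the groups, at 102 to 135 CPM in wild type and 116 to 203 CPM in the knockout. Oligodendrocyte markers had a median of -0.05 with none at an unadjusted p under 0.05, endothelial and mural markers 0.03 with none, pan-neuronal markers -0.01 with none, and ependymal and choroid plexus markers 0.15 with none. Among oligodendrocyte precursor markers the receptor gene Gpr17 (0.33 ± 0.132) alone had an unadjusted p under 0.05, and among interneuron markers Pthlh alone.

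Astrocyte genes themselves differed little. Of 28 astrocyte markers 27 were higher and 1 lower, with a median of 0.12 and none at an unadjusted p under 0.05, and the 95% interval lay within 1.5-fold for 25 of them. Kcnj10, the inward rectifier potassium channel Kir4.1, had 472, 515, 574 and 616 CPM in wild type and 604, 841, 637 and 559 CPM in the knockout (0.28 ± 0.133, edgeR adjusted p = 0.999). Fgfr3, a growth factor receptor gene of astrocytes, was at 0.17 ± 0.08, and Gfap, the intermediate filament gene that rises in reactive astrocytes, at 0.26 ± 0.184. Their groups overlapped. Within the 2 runs of mouse numbers that hold both genotypes, Kcnj10 was at 0.39 and -0.05 and Gfap at 0.35 and -0.08 (mean log2 level, the run of wild-type replicate 4 second). The median over the astrocyte markers was 0.04 without wild-type replicate 1, where 18 were higher and 10 lower. Without the 2 mice lacking Y-linked reads it was 0.23, with 28 of 28 higher and 6 at an unadjusted p under 0.05. Summed levels ran from 38758 to 52083 CPM in wild type and from 45104 to 56983 CPM in the knockout.

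Astrocyte functions around the synapse gave small values that did not pass. All 14 potassium and ion homeostasis genes were higher, with a median of 0.12 and Slc8a1, a sodium-calcium exchanger gene, as the one with an unadjusted p under 0.05 (0.41 ± 0.158). Of 12 genes of glutamate uptake and the glutamine cycle 10 were higher, with a median of 0.13, and Slc38a2, a neutral amino acid and glutamine transporter gene, had 117, 114, 113 and 135 CPM in wild type and 147, 125, 151 and 185 CPM in the knockout (0.35 ± 0.114). Of 17 synaptogenic and secreted factors 15 were higher, with a median of 0.12 and none at an unadjusted p under 0.05, the phagocytic receptor gene Mertk being at 0.32 ± 0.151 (-0.07 and 0.57 within the runs of mouse numbers). Among genes of cholesterol synthesis, 20 of 24 were higher (median 0.14), with Lss (lanosterol synthase, 0.20 ± 0.0778) alone at an unadjusted p under 0.05 and all 24 intervals within 1.5-fold. Without wild-type replicate 2, 10 of the 24 had an unadjusted p under 0.05. Without wild-type replicate 1 the medians were lower, at 0.07 for potassium and ion homeostasis, 0.05 for the glutamine cycle, 0.03 for synaptogenic factors and 0.06 for cholesterol synthesis. Genes of GABA handling (median 0.06, 12 tested), astrocyte calcium signalling (-0.01, 17 tested) and the pan-reactive astrocyte state (0.13, 13 tested) gave at most 1 gene with an unadjusted p under 0.05 each, as did interferon response genes (0.04, 22 tested). The pan-reactive list had opposite signs in the 2 runs, at 0.31 and -0.30. The direction of the interferon list hung on single libraries. Without wild-type replicate 2 all 22 genes were higher (median 0.22), and without wild-type replicate 3, 1 was higher and 21 lower (-0.14). In input 22 of 22 were lower (median -0.28). The difference between the fractions had an edgeR unadjusted p under 0.05 for 7 of them and passed adjustment for none.

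The partners of SAPAP3 in the postsynaptic scaffold were read in the IP libraries as well. Of 17 genes for SAPAP, Shank and PSD-95 family proteins and their binding partners other than Dlgap3, 12 were higher and 5 lower, with a median of 0.05 and 2 at an unadjusted p under 0.05. Without knockout replicate 1 the median was -0.02, and the mean log2 difference was 0.27 and -0.10 in the 2 runs of mouse numbers. Homer2, which encodes a scaffold that binds Shank and group I glutamate receptors, had 22.7, 23.7, 26.2 and 28.0 CPM in wild type and 37.1, 32.1, 26.6 and 28.5 CPM in the knockout (0.31 ± 0.113, and 0.46 and -0.02 within the runs). Shank2, a direct partner of the SAPAP proteins, was at 0.33 ± 0.14, and Dlgap1, the gene of the related SAPAP1, at 0.19 ± 0.108, with overlapping groups and an edgeR adjusted p of 0.999. Ionotropic glutamate receptor genes had a median of 0.04 over 15 members with none at an unadjusted p under 0.05, the kainate receptor gene Grik3 being at 0.24 ± 0.115 (0.41 and -0.03 within the runs). Metabotropic receptor genes had -0.11 over 7 members with none, with Grm5, a group I receptor gene, at -0.30 ± 0.142 (-0.32 and 0.06 within the runs).

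**Figure D5:**
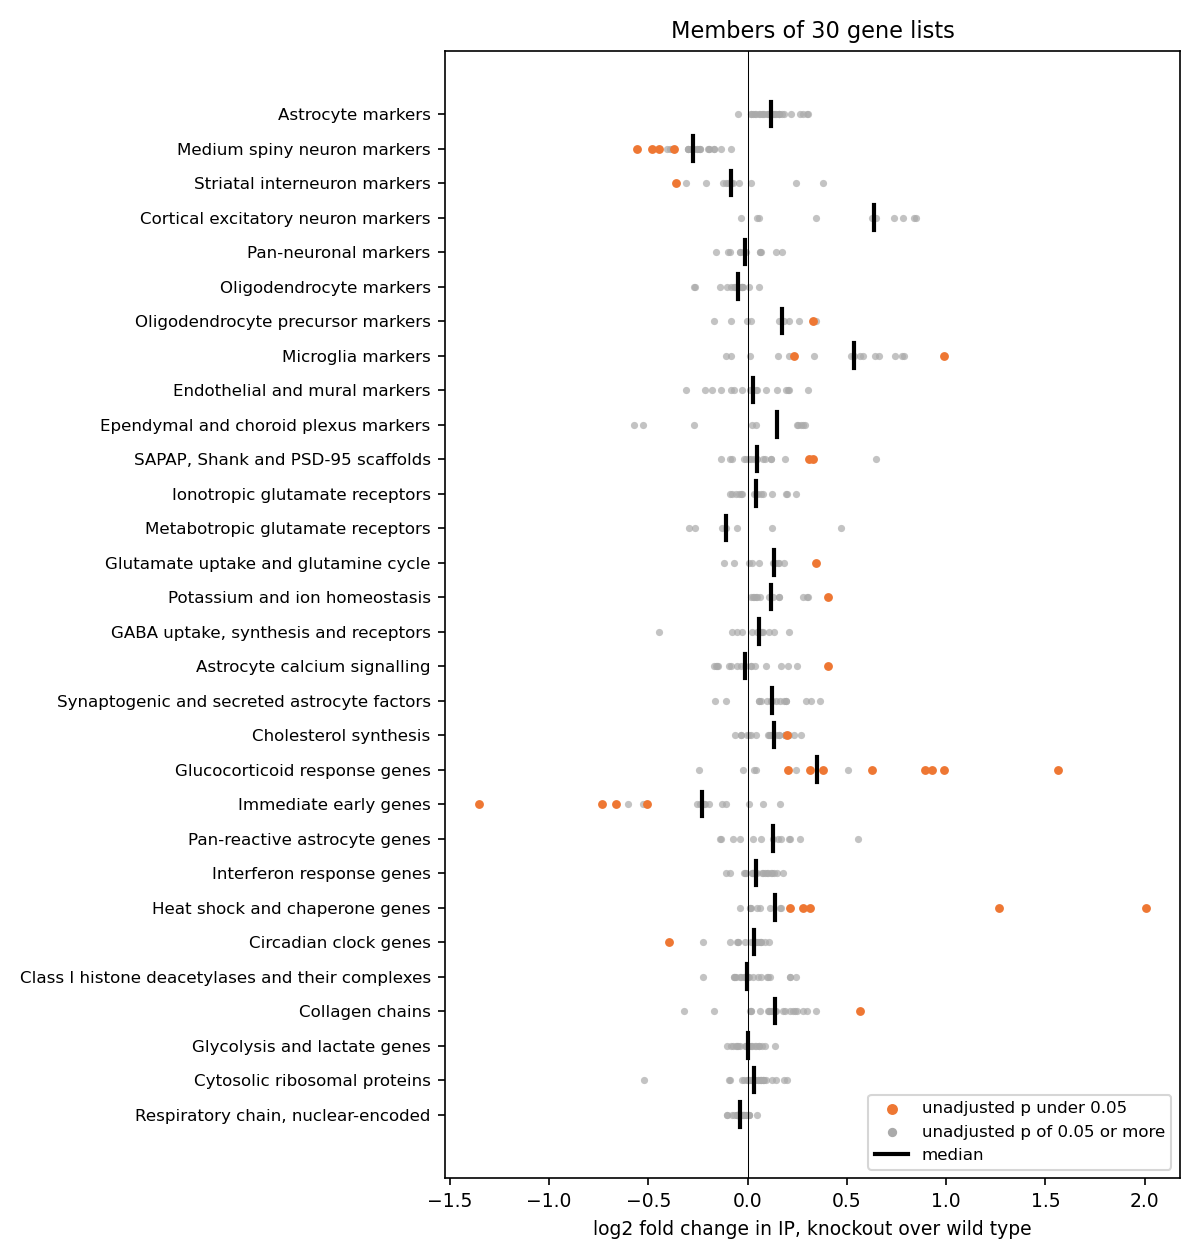
Log2 fold change in IP of knockout over wild type (x axis) for the tested members of 30 gene lists (rows), with the list median as a black bar. Orange points have an unadjusted p under 0.05 and none has an adjusted p under 0.05. Members lie to one side of 0 in medium spiny neuron markers and in potassium and ion homeostasis genes.

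In housekeeping programmes most 95% intervals lay within 1.5-fold. They did so for 25 of 28 ribosomal protein genes, 26 of 26 respiratory chain genes and 19 of 20 glycolysis and lactate genes. The median standard error of the ribosomal list was 0.11, the same as over all genes. Ribosomal protein genes had a median of 0.04 over 28 members, nuclear-encoded respiratory chain genes -0.04 over 26 and glycolysis and lactate genes 0.00 over 20, and no member of the 3 lists had an unadjusted p under 0.05.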

How the data were processed

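RNA was read from the IP and input libraries of 8 mice, 4 per genotype, with 40.37 to 47.7 M reads counted per IP library. The read counts per gene were made by the authors with STAR, HTSeq and mm10, per the submitters' processing notes; versions, gene annotation and strand setting are not given in the sources used here. The deposited FPKM values are, checked on the files, these counts divided by gene length and column total, and were used only for levels per length. Same-group IP libraries differed by more than sampling noise (chi-square divided by its degrees of freedom, 15.6 to 64.9), so each was kept as 1 replicate.

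The counts were tested with the quasi-likelihood test of edgeR 4.0.16 (R 4.3.3, TMM scaling, filterByExpr with a count minimum of 10) and Benjamini-Hochberg adjustment over all genes at 0.05. CPM values are scaled by the TMM library size. The genotype effects in IP and input were compared in 1 fit of all 16 libraries, with each animal as a block. Alternatives used limma 3.58.1 (voom), DESeq2 1.42.0, other scalings, filters and sets of libraries. Gene positions came from GENCODE M21 and matched 22756 of 24060 rows; 4 rows with duplicated symbols were not named.

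The comparison and the gene lists were chosen with earlier results of these data known. Named genes were Dlgap3, the calls, the 12 largest estimates in each direction with an unadjusted p under 0.01, at least 1 log2 CPM and no overlap, neighbours within 10 Mb with an unadjusted p under 0.01, the 4 genes with the smallest p for the difference between fractions, and up to 4 members of each list by p; the text describes a selection of these. Gene models that were not called and sex-linked genes were left out of the rule. Some items that the rule picks are not reported here.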

Additional observations from a re-analysis of the deposited data

Results flagged for a closer look

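For 7 of 204 groups of 4 libraries, 1 library stood apart from the other 3 by Dixon's test at the 95% level, which by chance marks about 1 in 20 groups. All 7 were wild-type IP groups. Wild-type replicate 1 was high for the adenosine receptor gene Adora2a (143.62 CPM, the others 83.3 to 92.7). It was low for the sodium-calcium exchanger gene Slc8a1 (199.16 CPM, the others 322 to 335) and for the glucocorticoid-induced gene Tsc22d3 (91.857 CPM, the others 129 to 135). Wild-type replicate 4 was high for the chaperone genes Hspa1b (2.8984 CPM, the others 1.85 to 2.00) and Hspa1a (3.7805 CPM, the others 2.71 to 2.79), and for the kinase gene Sgk1 (256.28 CPM, the others 94.2 to 112). Wild-type replicate 3 was high for the scaffold gene Shank2 (43.6 CPM, the others 32.5 to 33.4).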

How the results depend on the processing

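The 4 IP calls were also made with relative log expression and upper-quartile scaling, no filter, a CPM minimum, both voom fits, robust dispersion and an adjusted p threshold of 0.1. All 16 libraries of the experiment gave 5, all 24 IP libraries of the series 5 without Hdac1, and Xist as a covariate 3. DESeq2 made 8 calls, adding Egr2, Egr4, Rnf152 and Zbtb8a. The replicate block left 2, Col16a1 and Dlgap3, with 927 genes at an unadjusted p under 0.05. Same-numbered mice correlated at 0.0864, 0.335, 0.344 and -0.0133, and mice with different numbers at -0.295 to 0.183. Replicates 2 and 3 were thus above every pair with different numbers, and replicates 1 and 4 were not. Whether the numbers pair the mice is not settled by these values, and the labels state no pairing. Without the libraries with Xist above 1 CPM there were 7 calls (Dlgap3, Hspa1a, Hspa1b, Plin4, Sgk1, Mfsd2a and Plekhf1). In that fit genotype and run of mouse numbers cannot be told apart. Chosen after seeing the data, leaving out the 2 mice with Xist above 10 CPM gave 0 calls (989 genes at an unadjusted p under 0.05), and the run of animal numbers as a block gave 0 (297 genes). Leaving out 1 library gave 0 to 3 calls, 0 without wild-type replicate 4 and 3 without knockout replicate 1, and 194 to 696 genes at an unadjusted p under 0.05; these fits have fewer samples.

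In input, DESeq2 called 8 genes against 1, 0 were called without the 2 mice with Xist above 10 CPM, and leaving out 1 library gave 0 to 1, with 0 without knockout replicate 2, 3 or 4. For the difference between fractions, DESeq2 without the animal block called 1 gene. The share of neighbours at an unadjusted p under 0.05 was 8.73% within 10 Mb, 16.81% within 5 Mb, and 6.75 to 11.02% without single libraries.

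Of 1655 alternative values for 72 named genes, 1612 kept their direction and side of the threshold, 32 lost a call, 11 gained one and 0 reversed. All 32 losses were those of the genes called in IP, since only a called gene can lose a call. Most of the 72 genes were picked by p or size of estimate in the same libraries and were not called. For these, an unchanged direction and side of the threshold was largely set by the choice, so the count of 1612 is no test of them. Of 690 list medians, 35 moved by at least the SD of the list's mean log2 level between the wild-type IP libraries. The spread between knockout libraries was not used. The cause of these changes was not tested.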
